A study of Mus musculus with 12 samples.

Results

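The 45 genes described here encode the nuclear-encoded subunits of respiratory complex I and the factors that build it. They are the rows of the deposited table whose symbol is Nduf followed by a, ab, af, b, c, s or v and a number, and that have a value of at least 1 in 3 or more of the 12 libraries. All 45 rows that match this naming rule pass it, of 53351 genes in the table and 20240 tested. They divide into 37 genes named as subunits and 8 assembly factors, Ndufaf1 to Ndufaf8. Ndufa4 carries a complex I name but is now known as a subunit of complex IV, and it is kept here by the rule. Counts and medians of the 30 supernumerary subunits below include it. The libraries come from wild-type mouse cortical neural progenitor cells, prepared from the cortex at E13.5 as a primary culture and grown overnight with EGF and bFGF. The cultures received either DMSO, the solvent, or 250 nM Torin1, which blocks the kinase mTOR in both of its complexes, for 2 h, and all of them then received cycloheximide at 100 ug/ml for 5 min, which holds ribosomes on mRNA. Total mRNA is 10% of each lysate, and the gradient fractions with more than 3 ribosomes per mRNA were taken as polysome mRNA. The 4 groups (total DMSO, total Torin1, polysome DMSO and polysome Torin1) have 3 biological replicates each. Whether these came from separate litters or dissections is not stated, so p-values measure the spread between these cultures.

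Complex I, NADH:ubiquinone oxidoreductase, is the entry point of electrons from NADH into the respiratory chain of the inner mitochondrial membrane. Its L shape has a matrix arm, where NADH is oxidised and electrons run over flavin and iron-sulfur clusters to ubiquinone, and a membrane arm that pumps protons. The core subunits, conserved from bacteria, do the chemistry and the pumping. Those of the matrix arm are encoded in the nucleus and those of the membrane arm in mitochondrial DNA. The supernumerary subunits surround this core. Assembly factors join modules of the enzyme, insert cofactors or modify subunits, and are absent from the finished complex. mTOR signalling is known to favour translation of mRNAs for mitochondrial proteins and of mRNAs whose first base is a C followed by a run of pyrimidines.

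The first bases of the mRNAs are therefore shown for Ndufaf4, Ndufaf2, Ndufb7 and Ndufb10, members that were called with Torin1, and for the only member whose annotated start is a C followed by at least 4 C or T. The RefSeq promoter table (GRCm38.p6) holds 40 of the 45 members, some with more than 1 promoter. Here and below a member is counted if any of its promoters matches, while the share of all promoters counts each promoter on its own. Each line below gives the last 10 bases before the annotated start in lower case and the first 20 bases of the transcript in capitals, 5′ to 3′ on the strand of the gene.
Ndufaf4 (chr4:24898073-24898102, plus strand): gcccctggtgTGCGCATGCTCCGTGCGTAC
Ndufaf2 (chr13:108158606-108158635, minus strand): ggagcttagcGTGGGCGTGTCCTCCGGTGG
Ndufb7 (chr8:83566748-83566777, plus strand): ctgaaggggcAGTGCTTCCAGGTGGGAGCG
Ndufb10 (chr17:24724404-24724433, minus strand): acctttctgcGCAGGCGTAGAGGTCCCGCG
Ndufb11 (chrX:20617600-20617629, minus strand): aagaggcccgCTCTTTAGAAGCTTGCTGTC
Ndufb11, a subunit of the distal membrane arm, was thus 1 of 40 members with such a start (2.5%), beside 2.505% of all 32851 promoters in the table. None of these 4 called members began with C. Annotated starts can lie some bases from the start used in these cells.

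Letters of transcription factor motifs were searched in the 250 bases before and 50 after each start, on both strands. The NRF1 motif is shown because Ndufaf4, the member with the largest Torin1 fold, holds it, and because the mRNA of Nrf1 itself fell. Its letters, in capitals in the lines below with 9 bases on each side, stood in 3 of 40 members (7.5%) and in 0.971% of all promoters in the table.
Ndufaf4 (chr4:24897961-24897988, first capital 113 bases before the start): cagatgtctGCGCATGCGCctgtgcgga
Ndufa11 (chr17:56717693-56717720, first capital 60 bases before the start): ctgcactgcGCGCATGCGCgcacgcctt
Ndufaf5 (chr2:140170653-140170680, first capital 16 bases after the start): gtcccgttgGCGCATGCGCctaatagaa
With any base allowed in place of the T in the capitals, which takes in the matches above, 9 of 40 members matched (22.5%) beside 4.603% of all promoters. The letters of the YY1 motif are shown because they were held by a larger share of members than of all promoters. They were found in 5 of 40 (12.5%) beside 0.633%, on the strand of the gene and between 10 and 35 bases after the start. They are in capitals in the lines of 3 of these members.
Ndufaf8 (chr11:120098935-120098963, plus strand): gcagggcccAAGATGGCGGCgccctcgag
Ndufa9 (chr6:126849096-126849124, minus strand): ttgtgggagAAGATGGCGGCcgccgtccg
Ndufs7 (chr10:80249464-80249492, plus strand): gccgaggccAAGATGGCGGCgctggcggg
The other two were Ndufs4 and Ndufs6. The ETS letters CCGGAAGT, the site class of GABPA, were in 1 of 40 members, Ndufs3 (2.5%), beside 3.887%. A match describes letters in a window and shows no binding. Of the 5 members with the YY1 letters none was called with Torin1 in total or polysome mRNA with the main scaling (Ndufs7 and Ndufa9 were higher in polysome mRNA by the column total only), and of the 3 with the full NRF1 letters 1 was.

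Abundances below are in ppm of the total of a library, scaled between libraries by a trimmed mean of gene ratios (the main scaling). They are not reads, and depth in reads is unknown. Because the scaling by length is also unknown, levels are compared between libraries and not between genes. Radial glia markers summed to 3396 to 3481 ppm in total DMSO and 3877 to 3968 ppm in total Torin1, with 8 of 8 above 1 ppm on average. Neuron markers were abundant too, at 2440 to 2538 ppm in total DMSO and 2540 to 2655 ppm in total Torin1, with 0 of 6 under 1 ppm. Interneuron markers summed to 155 to 165 and 181 to 193 ppm in the same groups. Microglia markers summed to 5.82 ppm at most, with 2 of 4 under 1 ppm on average. Erythroid markers summed to 1021 to 1089 ppm in total DMSO and 1116 to 1297 ppm in total Torin1. Meningeal markers summed to 15.2 to 21.0 ppm in total DMSO and 31.4 to 40.1 ppm in total Torin1, and the 3 intermediate progenitor markers to 121 to 126 and 183 to 190 ppm. For all marker lists named here except microglia, the total Torin1 sums lay above the total DMSO sums without overlap. The part of these marker shifts in the results below was not tested. In bulk libraries, fewer cells of a type and less mRNA per cell cannot be told apart. Total Torin1 replicate 2 held 2061 ppm of the nuclear RNA Rn7sk, against 38.2 to 181 ppm in the other total libraries. The members together made up 0.766% to 0.784% of the column in total DMSO, 0.662% to 0.722% in total Torin1, 1.46% to 1.64% in polysome DMSO and 1.47% to 1.78% in polysome Torin1.

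In cells given DMSO, nearly all complex I mRNAs were more abundant in the polysome fraction than in total mRNA, and subunits more so than assembly factors. Of the 37 subunits 37 were higher and 0 lower, and of the 8 assembly factors 5 were higher and 0 lower (limma, adjusted p under 0.05). Over the 45 members that is 42 higher, beside 21.8% of all genes tested that were higher and 19.3% that were lower. Expressed genes are the 9217 with a mean log2 abundance of at least 3, and all 45 members are among them. Of these 9217 genes 3801 were higher and 2332 lower. The median log2 difference between polysome and total mRNA was 1.32 for subunits and 0.76 for assembly factors. It was 0.00 for all genes tested and 0.15 for expressed genes. Scaled by the column total only, which moves the median of all genes tested to -0.37, 34 subunits and 4 assembly factors were higher, the medians were 0.91 and 0.35, and 9.16% of all genes were higher and 33.1% lower. Ribosome number on an mRNA depends on coding length, which was not used here.

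**Figure D1:**
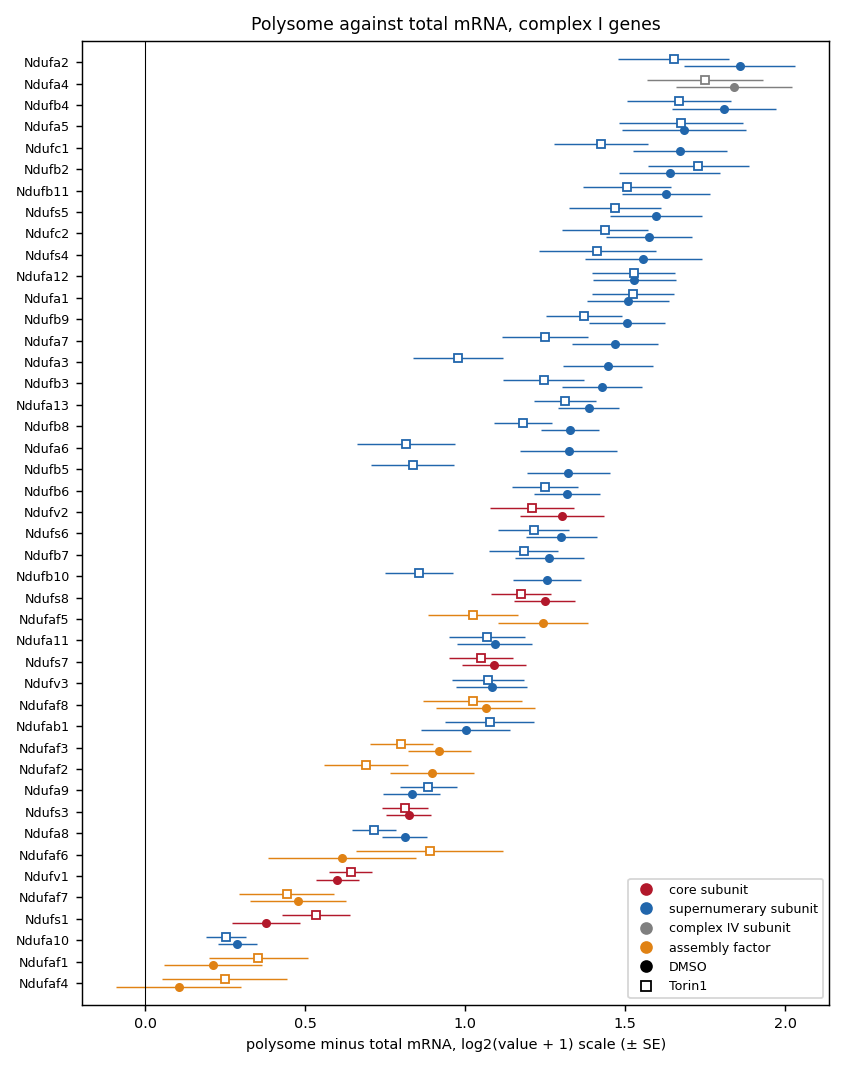
Difference between polysome and total mRNA for 44 of the 45 genes (x axis, log2(value + 1) scale, bars are the standard error of the fit over 3 libraries a group), sorted by the value in DMSO; filled circles are DMSO, open squares Torin1 and colours the roles. Ndufa2 lies highest at 1.86 in DMSO, and Ndufaf4 lowest at 0.10.

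Among the subunits the largest difference was that of Ndufa2, a small thioredoxin-fold subunit of the matrix arm on chromosome 18. Its abundance was 253, 274 and 258 ppm in total DMSO replicates 1, 2 and 3, and 1083, 757 and 1042 ppm in the polysome libraries of the same numbers. The groups lay far apart, with a log2 difference of 1.86 ± 0.17 (SE; limma, adjusted p = 5.55e-06). Ndufa4, the complex IV subunit, went from 596 ± 1.11 ppm (SD, n = 3) in total to 2152 ± 336 ppm in polysome DMSO, a difference of 1.84 ± 0.18. Ndufb4 of the distal membrane arm went from 57.4 ± 2.31 to 204 ± 39.6 ppm, a difference of 1.81 ± 0.16. The other 9 of the 12 largest differences ran from 1.51 for Ndufa1 to 1.68 for Ndufa5, by way of Ndufa12, Ndufs4, Ndufc2, Ndufs5, Ndufb11, Ndufb2 and Ndufc1. They include subunits of the matrix arm and of both parts of the membrane arm. At the other end, Ndufa10, a nucleoside kinase-like subunit of the membrane arm, had 75.2, 80.9 and 80.4 ppm in total and 95.2, 96.6 and 96.8 ppm in polysome DMSO. Its difference of 0.29 ± 0.06 was the smallest of any subunit and still past the threshold (limma, adjusted p = 0.00224), but it turned to -0.12 ± 0.09 and was not called when libraries were scaled by the column total only. Ndufs1, the large iron-sulfur subunit next to the NADH site, had 48.3, 46.2 and 49.6 ppm in total and 64.9, 64.2 and 58.6 ppm in polysome DMSO. That difference of 0.38 ± 0.11 likewise became -0.03 ± 0.10.

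The 7 nuclear-encoded core subunits had a median difference of 0.85 and the 30 supernumerary subunits one of 1.44. Within the core, Ndufv1, which binds NADH and flavin, had 0.60 ± 0.07 (0.19 ± 0.10 and not called by the column total only), and Ndufs3, a scaffold of the matrix arm, had 0.82 ± 0.07. Ndufs7, which carries the iron-sulfur cluster that reduces ubiquinone, had 1.09 ± 0.10. The iron-sulfur subunits Ndufs8 and Ndufv2 had the largest values of the core, 1.25 ± 0.09 and 1.30 ± 0.13. By position, the medians were 1.27 for 16 subunits of the matrix arm, 1.45 for 9 of the proximal membrane arm and 1.38 for 10 of the distal membrane arm, and the values of the 3 positions overlapped. In the distal arm every subunit lay between 1.26 and 1.81. Ndufab1, the mitochondrial acyl carrier protein, which sits in both arms, had 1.00 ± 0.14.

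Assembly factors spread from near 0 to above 1. Ndufaf5, which hydroxylates a residue of Ndufs7, went from 31.5 ± 0.282 to 75.1 ± 8.92 ppm between total and polysome DMSO, a difference of 1.24 ± 0.14. Its partner Ndufaf8 had 33.4, 36.7 and 31.9 ppm in total and 64.3, 62.8 and 88.3 ppm in polysome DMSO, a difference of 1.06 ± 0.15. Ndufaf3 and Ndufaf2, which act on the ubiquinone module and on a late intermediate, had 0.92 ± 0.10 and 0.90 ± 0.13. Ndufaf7, a methyltransferase of the early assembly steps, had 0.48 ± 0.15, which was not called when libraries were scaled by the column total only (0.07 ± 0.14). That call was also lost without any 1 of the 3 total DMSO libraries and without polysome DMSO replicate 1 or 3 (adjusted p from 0.0512 to 0.0765, limma). The 3 factors not called were Ndufaf6 (0.62 ± 0.23, adjusted p = 0.0501 with limma), Ndufaf1, a partner of the membrane arm intermediates (0.21 ± 0.15, adjusted p = 0.312), and Ndufaf4, which acts with Ndufaf3 (0.10 ± 0.19, adjusted p = 0.712). Ndufaf4 had 20.1, 22.1 and 22.6 ppm in total and 26.0, 20.0 and 24.0 ppm in polysome DMSO, so these groups overlapped. Ndufaf1 and Ndufaf4 had -0.20 ± 0.14 and -0.31 ± 0.17 by the column total only, and neither was called.

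The polysome pattern was present with Torin1 too. Of the 37 subunits 37 were higher in polysome than in total mRNA, as were 6 of 8 assembly factors, with medians of 1.21 and 0.75. That is 43 of 45 members (limma), beside 20.7% of all genes tested and 3663 of the 9217 expressed genes. Ndufaf6 was called here, at 0.89 ± 0.23, and Ndufaf1 and Ndufaf4 were not, at 0.35 ± 0.15 and 0.25 ± 0.19. Polysome lay above total Torin1 without overlap in 4 of the 8 factors, beside 4829 of 20240 genes tested. By the column total only, 36 subunits and 5 factors were higher, beside 15.7% of all genes. Ndufaf7, at 0.44 in the main scaling, was then not called (adjusted p = 0.0838, limma). With only the groups compared in the fit, Ndufaf7 and Ndufaf6 were not called (adjusted p = 0.121 and 0.0623, limma). The comparisons in DMSO and in Torin1 use different libraries, but total and polysome libraries of 1 culture share their lysate.

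The 7 complex I subunits encoded in mitochondrial DNA, which are translated on mitochondrial ribosomes, ran the other way. In DMSO 6 of 7 were lower in polysome than in total mRNA (limma, adjusted p under 0.05) and 0 higher, beside 42 higher of the 45 nuclear members. Of all genes tested 19.3% were lower. mt-Nd1, a membrane arm core subunit, had 6409, 6556 and 6238 ppm in total DMSO and 601, 290 and 497 ppm in polysome DMSO. That is a log2 difference of -3.85 ± 0.21, and the groups lay far apart. mt-Nd5, a proton-pumping subunit, had the smallest difference, -0.66 ± 0.17. The member not called was mt-Nd3, with 108, 18.9 and 65.3 ppm in polysome DMSO and 24.0 ppm in polysome Torin1 replicate 1, and it is listed at 0 in the polysome Torin1 libraries of replicates 2 and 3. All 7 were called lower in polysome Torin1 than in total Torin1 (limma), beside 19.1% of all genes tested. With Torin1 0 of 7 were called in total mRNA. In polysome mRNA mt-Nd3 was called lower with Torin1 and 0 were higher, beside 6.27% of all genes tested that were lower. Its fold of -6.89 includes those 0 values. By the column total only, mt-Nd3 was lower and mt-Nd1 higher there.

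After 2 h of Torin1 most complex I mRNAs moved little in total mRNA. Of the 8 assembly factors Ndufaf4 fell and the others did not pass the test. Over all members 2 of 45 were called beside 7.48% of all genes tested, with 1 higher beside 3.33% and 1 lower beside 4.15% (limma). Among the 9217 expressed genes 406 were higher and 691 lower. The median log2 fold was -0.12 for subunits and -0.14 for assembly factors, beside 0.00 for all genes tested and -0.05 for expressed genes. The fold was negative for 35 of 45 members, beside 5376 of the 9217 expressed genes. In 19 of 45 all 3 Torin1 libraries lay below all 3 DMSO libraries, beside 17.7% of all genes tested, and in 1 of 45 they lay above, beside 15.6%. For expressed genes the counts were 2713 below and 1661 above, of 9217. Of the 19 members, 16 were supernumerary subunits with Ndufa4 among them, 3 were assembly factors and 0 were core subunits.

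**Figure D2:**
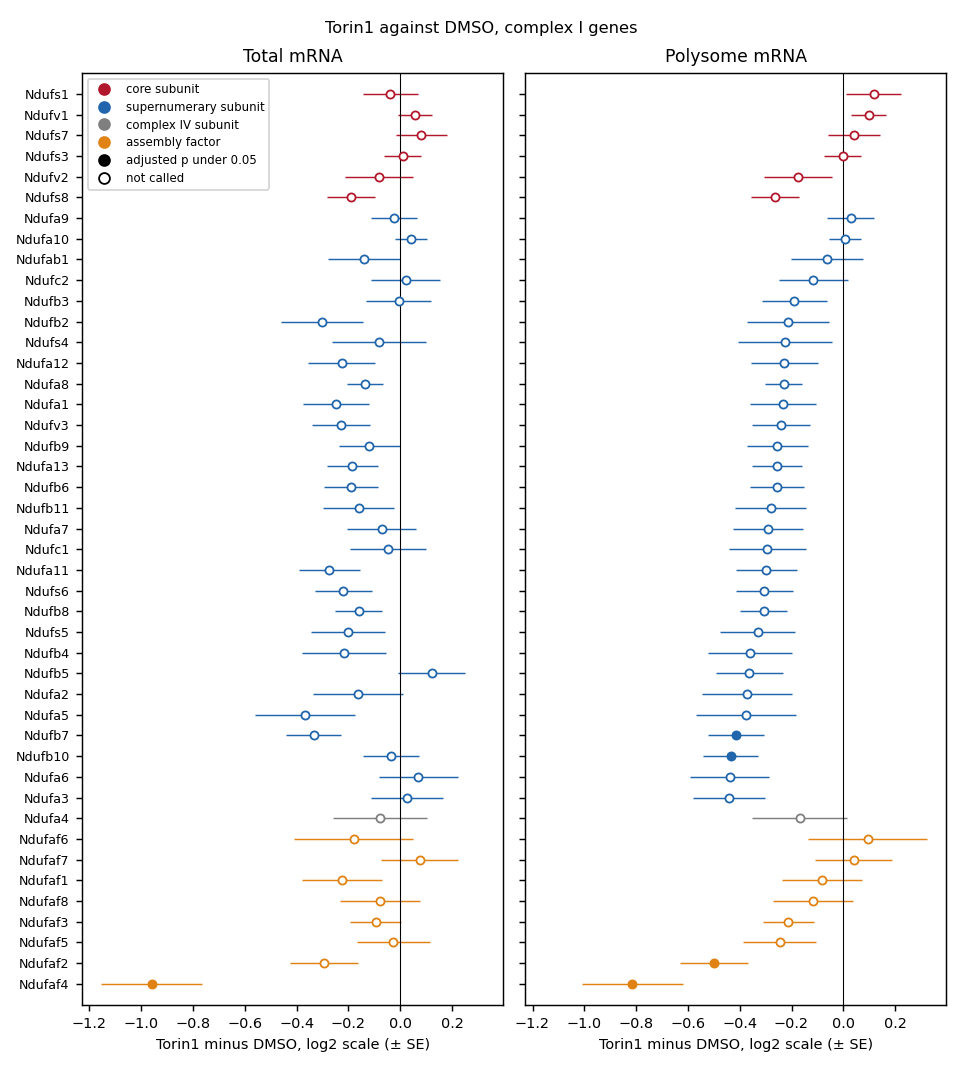
Log2 fold of Torin1 against DMSO (x axis, bars are the standard error of the fit, 3 libraries a group) in total mRNA (left) and polysome mRNA (right) for 44 of the 45 genes, grouped by role; filled points passed an adjusted p of 0.05. With the main scaling, Ndufaf4 is filled in total mRNA, and in polysome mRNA Ndufb7, Ndufb10, Ndufaf2 and Ndufaf4 are.

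Ndufaf4, on chromosome 4 from 24898083 to 24905001 (GRCm38.p6), encodes a factor needed to join the ubiquinone module. Its total mRNA was 20.1, 22.1 and 22.6 ppm in DMSO replicates 1, 2 and 3, and 13.46, 10.54 and 9.54 ppm in the Torin1 replicates. Every Torin1 library lay below every DMSO library. The log2 fold was -0.96 ± 0.19 (adjusted p = 0.0124, limma). The call was lost without total Torin1 replicate 2 (fold -0.92, adjusted p = 0.0509, limma) and without total Torin1 replicate 3 (fold -0.85, adjusted p = 0.0564, limma). The call was also lost when all libraries of replicate number 1, 2 or 3 were left out (adjusted p = 0.0525, 0.207 and 0.0809, limma). It held when libraries were scaled by the column total only (adjusted p = 0.00768). Its RefSeq span overlaps that of the predicted gene Gm46848, and strand use in the counting is not stated.

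Among core subunits Ndufs8 had a fold of -0.19 ± 0.09 in total mRNA, Ndufv2 -0.08 ± 0.13, Ndufs1 -0.04 ± 0.11, Ndufs3 0.01 ± 0.07, Ndufv1 0.06 ± 0.07 and Ndufs7 0.08 ± 0.10, and none of these passed the test. Ndufb5 had 0.12 ± 0.13, within its error. After Ndufaf4, the most negative folds were -0.37 ± 0.19 for Ndufa5, a matrix arm subunit, and -0.33 ± 0.11 for Ndufb7 (adjusted p = 0.309 and 0.089, limma). Ndufaf4 and Ndufb7 were called lower, and 0 members higher, by the column total only. Among the assembly factors Ndufaf2 had -0.29 ± 0.13, Ndufaf1 -0.22 ± 0.15, Ndufaf6 -0.18 ± 0.23, Ndufaf3 -0.09 ± 0.10, Ndufaf8 -0.08 ± 0.15, Ndufaf5 -0.03 ± 0.14 and Ndufaf7 0.07 ± 0.15. None of these passed the test.

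In polysome mRNA, 4 members fell with Torin1 and 0 rose. They were the assembly factors Ndufaf4 and Ndufaf2 and the distal membrane arm subunits Ndufb7 and Ndufb10 (4 of 45 called beside 10.7% of all genes tested in either direction, 6.27% lower and 4.41% higher, limma). Among the 9217 expressed genes 1089 were lower and 576 higher. The folds were negative for 37 of 45 members, beside 5499 of the 9217 expressed genes. The median was -0.25 for subunits and -0.17 for assembly factors, beside -0.01 for all genes tested and -0.06 for expressed genes. Core subunits had a median of 0.04 and supernumerary subunits one of -0.27, and 28 of these 30 folds, that of Ndufa4 included, were negative. By position the medians were -0.23 in the matrix arm, -0.26 in the proximal and -0.29 in the distal membrane arm, where 10 of 10 folds were negative. In 6 of 45 members the Torin1 libraries all lay below the DMSO libraries and in 0 of 45 above, beside 13.4% and 11% of all genes tested. For expressed genes the counts were 1940 below and 1044 above, of 9217.

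These signs change with the scaling between libraries. By the column total only, which moves the median of all genes tested to 0.23, 5 members were higher, with Ndufs1, Ndufs7, Ndufv1 and Ndufa9 among them, and 1, Ndufaf4, was lower, beside 14.4% of all genes higher and 1.63% lower. The medians were then 0.01 for subunits, 0.31 for core subunits, -0.00 for supernumerary subunits and 0.10 for assembly factors. Supernumerary subunits lay below the median of all genes tested with both scalings, and core subunits above it. A change of scaling shifts all genes of a library by nearly the same log2 amount, so this agreement is no separate support. The distance of core from supernumerary subunits does not involve the scaling and is given per library below.

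**Figure D3:**
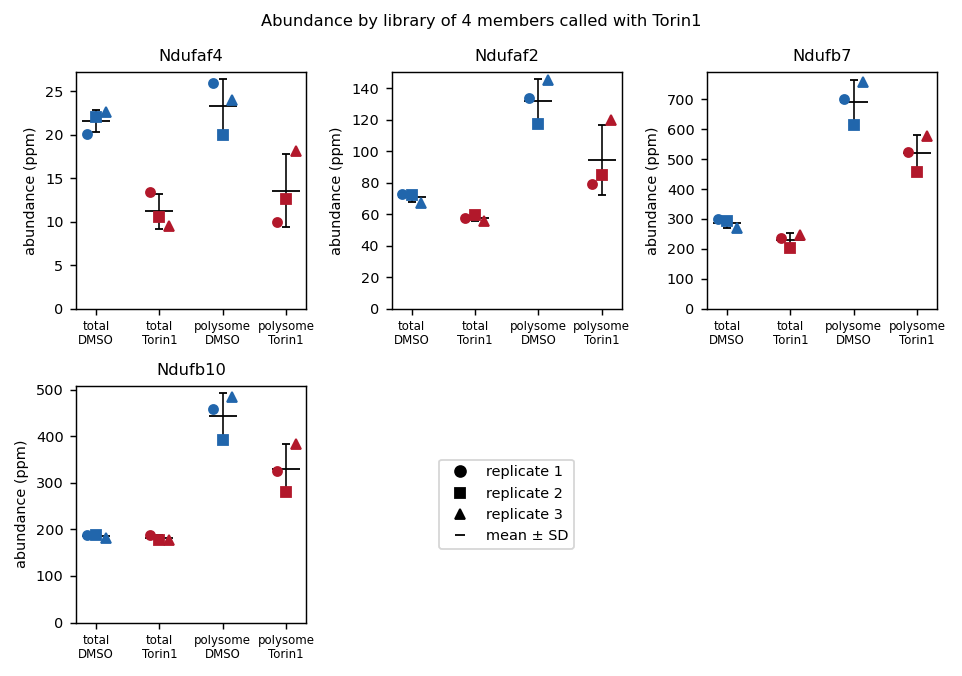
Abundance in ppm (y axis, from 0) of 4 members called with Torin1 in each of the 12 libraries; symbols are replicate numbers, colours DMSO (blue) and Torin1 (red), dashes and bars mean ± SD of 3. Ndufaf4 is lower with Torin1 in both kinds of mRNA, and polysome Torin1 replicate 3 lies above the other two Torin1 libraries for Ndufaf4, Ndufaf2, Ndufb7 and Ndufb10.

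Ndufaf4 had 26.0, 20.0 and 24.0 ppm in polysome DMSO replicates 1, 2 and 3, and 9.92, 12.6 and 18.1 ppm in polysome Torin1. The groups did not overlap, and the log2 fold was -0.82 ± 0.19 (limma, adjusted p = 0.0201). Ndufaf2, on chromosome 13 from 108052589 to 108158652, is related to the subunit Ndufa12 and holds its place in a late intermediate. It had 133.5, 117 and 145 ppm in polysome DMSO and 79.0, 84.7 and 120 ppm in polysome Torin1. Torin1 replicate 3 lay just inside the DMSO range, and the log2 fold was -0.50 ± 0.13 (limma, adjusted p = 0.0311). Ndufa12 itself had -0.23 ± 0.13 (adjusted p = 0.319).

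Ndufb10 and Ndufb7 lie on the intermembrane space side of the membrane arm and carry paired cysteine motifs. Ndufb10, on chromosome 17 from 24722060 to 24724423, had 458, 392 and 484 ppm in polysome DMSO and 326, 280 and 384 ppm in polysome Torin1. All Torin1 libraries lay lower. The log2 fold was -0.44 ± 0.11 (adjusted p = 0.0228, limma), while its fold in total mRNA was -0.04 ± 0.11. Ndufb7, on chromosome 8 from 83566758 to 83571623, had 701, 616 and 759 ppm in polysome DMSO and 525, 457 and 577 ppm in polysome Torin1, again without overlap. Its log2 fold was -0.41 ± 0.11 (limma, adjusted p = 0.0296). Ndufb8, a neighbouring membrane subunit, had -0.31 ± 0.09 (adjusted p = 0.0503) and was the nearest member outside the threshold. Scaled by the column total only, Ndufb10, Ndufb7 and Ndufaf2 had -0.17, -0.15 and -0.24 and were not called.

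Each of the 4 calls was lost without polysome DMSO replicate 1, without polysome DMSO replicate 3 and without polysome Torin1 replicate 2 (0 of 45 called each time). Ndufaf2 was also lost without polysome Torin1 replicate 1 (adjusted p = 0.0823). All 4 were also lost when all libraries of replicate number 1 or 2 were left out, and Ndufb7 when those of number 3 were. Without polysome DMSO replicate 2 the count was 8. The share of all genes called in that fit is not given here. Polysome Torin1 replicate 3 stood apart for these genes. Its subunits summed to 19062 ppm, against 14604 and 13316 ppm in Torin1 replicates 1 and 2, and lay inside the 15777 to 19972 ppm of polysome DMSO. Without it 22 of 45 members were lower and 0 higher, 18 of them supernumerary subunits with Ndufa4 among them, 3 assembly factors and 1 core subunit, Ndufv2, beside 9.14% of all genes tested that were then lower. The medians were then -0.38 for subunits and -0.26 for assembly factors, and without polysome Torin1 replicate 2 they were -0.17 and -0.10. The largest falls in that fit were those of Ndufaf4 (-1.05 ± 0.16), Ndufaf2 (-0.68 ± 0.08), Ndufa6, a matrix arm subunit that binds the acyl carrier protein (-0.62 ± 0.12), and Ndufa5 (-0.62 ± 0.15). A group of 2 libraries was there assumed to vary like the others.

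Among core subunits, no fold in polysome mRNA passed the test. Ndufs1 had 0.12 ± 0.11, Ndufv1 0.10 ± 0.07, Ndufs7 0.04 ± 0.10, Ndufs3 -0.00 ± 0.07, Ndufv2 -0.18 ± 0.13 and Ndufs8 -0.26 ± 0.09. Ndufs8 was the only core subunit whose Torin1 libraries all lay below DMSO, with 109, 96.8 and 108 ppm beside 124, 113 and 140 ppm. The remaining assembly factors, Ndufaf5 (-0.25 ± 0.14), Ndufaf3 (-0.21 ± 0.10), Ndufaf8 (-0.12 ± 0.15), Ndufaf1 (-0.08 ± 0.15), Ndufaf7 (0.04 ± 0.15) and Ndufaf6 (0.09 ± 0.23), were not called.

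Differences between groups of members inside 1 library do not depend on how libraries are scaled. In polysome DMSO the median log2 level of core subunits minus that of supernumerary subunits was -1.19, -1.18 and -1.16 in replicates 1, 2 and 3. In polysome Torin1 it was -0.63, -0.81 and -1.12. The Torin1 libraries thus all had the smaller gap, and replicate 3 lay nearest to DMSO. In total mRNA the difference was -0.86, -0.94 and -0.81 in DMSO and -0.71, -0.70 and -0.80 in Torin1, again without overlap. The median of assembly factors minus that of subunits was -2.73, -2.86 and -2.66 in total DMSO and -2.85, -2.53 and -2.98 in total Torin1. In polysome mRNA it was -3.57, -3.19 and -3.57 in DMSO and -3.20, -3.07 and -3.18 in Torin1. For assembly factors the groups overlapped in both kinds of mRNA. The levels compared here are medians over different genes, so only their change between libraries is read, with no test.

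**Figure D4:**
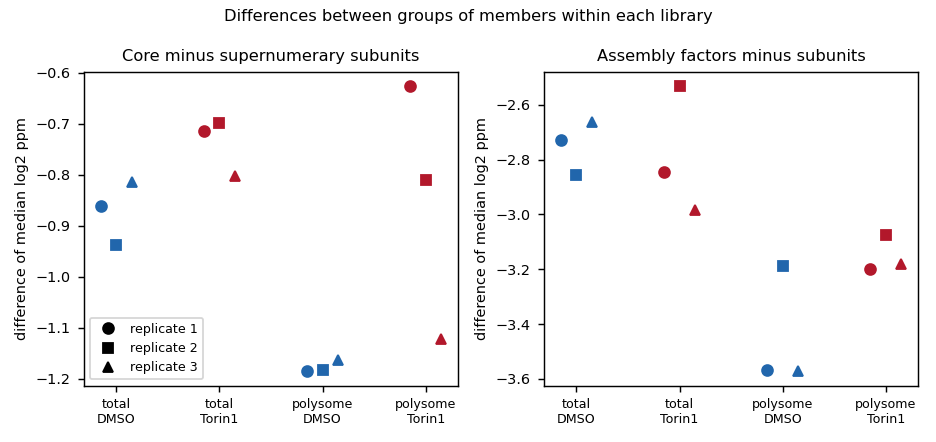
Difference of median log2 abundance (y axis) between core and supernumerary subunits (left) and between assembly factors and subunits (right) within each of the 12 libraries; symbols are replicate numbers. In polysome mRNA the core against supernumerary values lie from -1.19 to -1.16 in DMSO and from -1.12 to -0.63 in Torin1.

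The interaction asks whether the polysome to total difference itself changed with Torin1. It called 0 of 45 members (limma, beside 0.707% of all genes tested), and 4 had an unadjusted p under 0.05. Among the 9217 expressed genes 1 was called higher and 130 lower, and 576 had an unadjusted p under 0.05. The median was -0.09 for subunits and -0.04 for assembly factors, beside 0.00 for all genes tested. It depended on single libraries, being -0.20 and -0.15 without polysome Torin1 replicate 3, 0.00 for subunits without polysome Torin1 replicate 2 and 0.06 for assembly factors without polysome Torin1 replicate 1. By the column total only these medians were 0.21 and 0.26, beside 0.29 for all genes tested, and 0 members were called. The 3 most negative values were those of Ndufa6 (-0.51 ± 0.22), Ndufb5, a membrane arm subunit (-0.49 ± 0.18), and Ndufa3, a small membrane subunit (-0.47 ± 0.20), with adjusted p = 0.823, 0.702 and 0.816. Ndufb5 had 197, 197 and 172 ppm in total DMSO and 201, 197 and 218 ppm in total Torin1. Its polysome values were 482, 432 and 502 ppm in DMSO and 322, 325 and 468 ppm in Torin1, so that the polysome groups overlapped through Torin1 replicate 3. Without that library Ndufb5 was the only member called, at -0.66 ± 0.11 (limma, adjusted p = 0.0127). Ndufb10 had -0.40 ± 0.15. The 3 most positive values were those of Ndufaf6 (0.27 ± 0.33), Ndufs1 (0.16 ± 0.15) and Ndufaf4 (0.14 ± 0.28), none of them called. For Ndufaf4 the folds in total and polysome mRNA, -0.96 and -0.82, thus differed by less than the error of their difference. An absent call here does not show that polysome association was unaffected, since the standard errors of the member interactions reached 0.33.

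The other genes of the pathway were read from fixed lists, in the same fit. Of 10 measured assembly factors without an Nduf name, 7 were higher and 1 lower in polysome than in total DMSO, with a median of 0.43. By the column total only, 2 were higher and 1 lower. Over all genes tested 21.8% were higher and 19.3% lower with the main scaling. The shares by the column total only were 9.16% and 33.1%. Dmac1, a factor of the distal membrane arm, had 1.14 ± 0.12 and Timmdc1, a membrane arm factor, 0.84 ± 0.12. The 1 that was lower was Tmem186, with -0.31 ± 0.09. With Torin1 0 of 10 were called in total mRNA and 0 of 10 in polysome mRNA (2 and 1 at an unadjusted p under 0.05, limma), and by the column total only 0 and 3, all 3 higher. Of all genes tested 7.48% were called in total and 10.7% in polysome mRNA, and 14.4% were higher in polysome mRNA by the column total only. Dmac2 had a fold of 0.39 ± 0.11 in total mRNA (adjusted p = 0.053). Ndufa4l2, a relative of Ndufa4, stayed at or under 4.00 ppm in every library and was not called.

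Complexes II to V were read in the same way. Of 4 complex II genes 3 were higher in polysome than in total DMSO, as were 9 of 9 of complex III, 10 of 10 of complex IV and 15 of 15 of complex V, with medians of 0.78, 1.30, 1.35 and 1.09. The counts by the column total only were 3 of 4, 8 of 9, 10 of 10 and 13 of 15, with Sdha of complex II called lower. Among all genes tested the share higher was 21.8% with the main scaling and 9.16% by the column total only. With Torin1, 0 genes of any of these complexes passed the test in total mRNA (0 of 38 in all at the threshold, 2 at an unadjusted p under 0.05). Of all genes tested 7.48% were called there. In polysome mRNA 1 of 4 complex II genes was lower and 1 higher, and 2 of 9, 3 of 10 and 5 of 15 genes were lower and 0 higher in complexes III, IV and V, beside 4 of 45 Nduf members. By the column total only, 0 genes of complexes II to V were lower and 1, 2, 0 and 2 were higher in complexes II, III, IV and V. Over all genes tested 6.27% were lower and 4.41% higher in polysome mRNA with the main scaling. The shares by the column total only were 1.63% and 14.4%. With the main scaling the falls included Uqcrh of complex III (-0.60 ± 0.16), Cox4i1 and Cox8a of complex IV (both -0.44, with errors of 0.11 and 0.09) and Atp5k and Atp5g2 of complex V (-0.60 ± 0.17 and -0.44 ± 0.07). Sdha, the flavin subunit of complex II, had 0.43 ± 0.08, and Sdhd, its membrane anchor, -0.24 ± 0.07. In the interaction Atp5g2 was the only gene of these complexes called, at -0.59 ± 0.09 (limma, adjusted p = 0.0113), and by the column total only none was. The share of all genes tested called in the interaction with the main scaling was 0.707%.

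Among 10 regulators of respiratory gene transcription, 3 fell and 0 rose in total mRNA with Torin1. Of all genes tested 4.15% were lower there and 3.33% higher. Nrf1, whose motif letters are shown above, went from 53.0, 56.1 and 54.4 ppm to 45.1, 37.6 and 37.8 ppm. The groups did not overlap, and the log2 fold was -0.45 ± 0.08 (adjusted p = 0.00541, limma). Pprc1, a coactivator of the PGC-1 family, had -0.65 ± 0.16 and Gabpb1, a GABP subunit, -0.26 ± 0.07. Yy1 had -0.36 ± 0.11 (adjusted p = 0.0622). By the column total only, Nrf1 was the only regulator called in total mRNA, again lower, beside 2.53% of all genes lower. In polysome mRNA Esrra, a nuclear receptor of mitochondrial genes, fell by 0.52 and Pprc1 by 0.61 on the log2 scale. Ppargc1a, the coactivator PGC-1alpha, rose by 0.69 ± 0.16, from 2.27, 2.08 and 1.94 ppm to 3.68, 2.77 and 3.88 ppm. By the column total only, Ppargc1a and Gabpa were higher there and 0 regulators lower. Over all genes tested 6.27% were lower and 4.41% higher in polysome mRNA, and 14.4% higher by the column total only.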

How the data were processed

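Total and polysome mRNA of 4 groups of 3 libraries were taken as the sample titles give them. STAR 2.7.9a, HTSeq 0.6.0 and the build mm10 are listed in the submitters' processing notes, with no role or order. The authors deposited a signal that is never negative, for 53351 genes in 12 columns. In 100% of nonzero entries its values lie within 0.011, in their own units, of whole multiples of a step near 1e-08 of the column total. The step was fitted to each column for the most matches. The values are thus not read counts, and their scaling, by length or otherwise, is unknown. Column totals ran from about 14341700 to 19201400.

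The signal was divided by the column total and an unweighted trimmed mean of log ratios (0.3 of ratios and 0.05 of abundances trimmed at each end, reference total Torin1 replicate 2). On log2(value + 1), limma 3.58.1 (R 4.3.3) estimated 4 group means over 12 libraries with a variance trend, on 20240 genes with a value of at least 1 in 3 libraries, with Benjamini-Hochberg adjustment within each of 5 comparisons at 0.05. Folds on this scale understate changes of low genes. Tested on simulated data of 20240 genes, the fit recovered 66 of 100 genes changed 1.5-fold and 92 of 100 changed 2-fold in total mRNA, and 70 and 97 in polysome mRNA, and called 6 and 13 unchanged genes. The simulated noise was independent between genes, and total and polysome mRNA had the same gene means. Recovery in the real libraries can therefore differ.

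Members, gene lists and tests were chosen with earlier results of these data known. Members named with values are core subunits and assembly factors, members past the threshold (up to 12 by fold) or, where fewer than 3 pass, the 3 largest rises and falls, and for each list the 2 called genes that moved most or, with none called, its 2 most abundant. Values of other members are ones chosen after their values were seen. An item withheld from this text is counted among the members, and its own values are not reported here. Sequences and gene spans come from RefSeq tables for GRCm38.p6. The spans of 13 of the 45 members overlap another gene in that table, and reads of overlapping genes or of pseudogene copies could be shared. Alternatives were other scalings, filters, a pseudocount of 0.1, other fits, blocks and libraries left out. Figures were drawn with matplotlib 3.10.9.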

Additional observations from a re-analysis of the deposited data

How the results depend on the processing

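The higher polysome than total abundance of complex I mRNAs was called for 38 to 43 of 45 members in DMSO over the 14 other settings and for 40 to 43 over the fits that left out libraries, with 0 lower in each. The counts with Torin1 were less stable. With only the groups compared in the fit, 8 members were called in total and 0 in polysome mRNA. limma without a variance trend called 1 and 1, and a minimum of 1.5-fold left 1 and 1. Leaving out libraries or replicate numbers gave 0 to 3 calls in total mRNA, 0 to 22 in polysome mRNA and 0 to 1 in the interaction. Apart from the fit with 22, these counts stand without the share of all genes called in the same fit. A change particular to the members can therefore not be read from them. Scaling to the column total alone turned the polysome median of assembly factors to 0.0986 and made the polysome against total difference in DMSO negative for 4 members, of which Ndufa10 (-0.123) and Ndufs1 (-0.0318) had been called and Ndufaf1 and Ndufaf4 had not, and moved the DMSO loading medians to 0.912 for subunits and 0.345 for assembly factors. Ndufa4 left out changed no median of subunits by more than its spread. The cause of these shifts was not tested.

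Whether replicate numbers pair the libraries could not be decided from the values, since weak correlations do not show that a pairing is absent. Over 12 same-numbered pairs the correlation of deviations across 9217 expressed genes ran from -0.231 to 0.329, 2 pairs exceeded 0.1, and 6 of 24 comparisons had a library closest to its own number. With the replicate block 7 members were called in polysome mRNA, all lower. The share of all genes called in that fit is not given here, so the count describes the members alone. With that block Ndufaf6 also passed the test for polysome against total mRNA in DMSO. The planned comparison of polysome loading with protein length was not run. The depth in reads is unknown, so the counting error behind low values such as those of Ndufaf7 cannot be stated.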
